A study of Drosophila melanogaster with 12 samples.

Results

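RNA-seq of dissected larval central nervous systems (CNSs) of Drosophila melanogaster lacking CTCF was compared with a wildtype (WT) control, to find which gene classes and functions had increased or decreased expression in CTCF0 animals. The comparison took the 3 libraries labelled CTCF0 mutant and the 3 labelled as their WT control, 6 of the 12 libraries of the series. CTCF0 animals carried a different CTCF knockout allele on each homolog and came from mothers whose germline also lacked CTCF. As the study describes its crosses, a genomic CTCF rescue transgene flanked by FRT sites had been excised in the mothers' germline with a FLP recombinase driven by nanos, so that neither maternal nor zygotic CTCF was left by design. The control animals were w1118, a strain that carries a loss-of-function allele of the eye colour gene w. Both groups were reared at 25 °C, and each library was made from poly(A) RNA of 60 CNSs dissected at the third larval instar. Larvae were pooled without regard to sex. The study describes its mutants as genome-edited derivatives of w1118, while the labels list CTCF0 and w1118 as strains of their own. Loss of CTCF and any other difference between these strains cannot be told apart in this design. The other 6 libraries of the series hold Cp190KO mutant CNSs and a WT control of their own.

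CTCF is a zinc finger protein that binds DNA at insulator sequences and at many promoters. In vertebrates it halts cohesin to form the ends of chromatin loops, and in flies it recruits the insulator cofactor Cp190 and is known for separating regulatory domains of the Hox gene cluster bithorax. Flies without CTCF complete larval development, and the protein is needed in the nervous system for adult viability.

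The CTCF0 libraries held 12638505 to 15650376 reads assigned to genes, and the WT libraries 11652548 to 17935428. Levels are given as CPM, read counts scaled to a common library size after TMM correction. A count of 3, taken as the least a library can show, corresponds to at most 0.259 CPM in these libraries, and this floor covers counting error only. CTCF0 replicate 2 stood apart from the other 5 libraries. Reads outside annotated genes made up 6.83% of its reads, against 9.42% to 12.98% in the others, and it lay at 41.5 on a second principal component that held 31.6% of the variance. Genotype separated on the first component, which held 52.5%. Neuronal and neuroblast markers were detected in all libraries. The summed level of the 10 neuronal markers, among them elav, brp and nSyb, was 1117 to 1999 CPM in CTCF0 and 1357 to 2008 CPM in WT. The 7 neuroblast markers, among them mira, dpn and wor, summed to 439 to 495 CPM in CTCF0 and 491 to 556 CPM in WT. Most of these neuroblast sums came from mira, at 312 to 404 CPM in CTCF0 and 372 to 447 CPM in WT. The defining genes of the labelled tissue were thus present. Of 6 gut markers 5 had 3 counts or fewer in every library, and Amy-p had 38 to 71 counts in CTCF0 and 47 to 77 counts in WT. Salivary gland markers summed to 0.992 to 4.65 CPM in CTCF0 and 2.42 to 11.9 CPM in WT, with Sgs7 at 34, 4 and 5 counts in CTCF0 and 121, 46 and 15 counts in WT. Of 16 testis markers, 11 had 3 counts or fewer in every library. In bulk samples, a change in the number of cells of a type and a change in RNA per cell cannot be told apart.

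CTCF (chromosome 3L from 7353578 to 7356713 on dm6) had 38, 23 and 39 counts in the CTCF0 libraries, against 693, 483 and 585 counts in the WT libraries. CTCF RNA was lower in each CTCF0 library, as labelled (log2 fold change -4.17 with a standard error of 0.239, adjusted p = 6.49e-05). Of 19 tested genes for insulator proteins and their cofactors, CTCF was the only one that passed the test.

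Of 17510 genes listed, 8718 reached 1 CPM in at least 3 of the 6 libraries and were tested. A gene was called at an adjusted p-value under 0.05 by edgeR's quasi-likelihood test and a fold change over 1.5. By this rule 2.81% of the genes tested were called, namely 168 (1.93%) with increased and 77 (0.883%) with decreased expression in CTCF0 CNSs. Without adjustment, 1057 genes had a p-value under 0.05. All 245 called genes had CTCF0 libraries that lay wholly above or wholly below the WT libraries, which held for 17.4% of all genes tested (10% higher and 7.35% lower in CTCF0). The median log2 fold change was 2.04 among increased genes, -2.09 among decreased genes and 0.01 among all genes tested. More than 4-fold changes were found for 89 increased and 41 decreased genes. The calls depended on single libraries. With the same genes tested and each library left out in turn, 72 increased and 36 decreased genes stayed called throughout, and 244 of the 245 calls were kept without CTCF0 replicate 2. The called gene with the highest mean level was Arc1, at 2069 CPM.

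**Figure D1:**
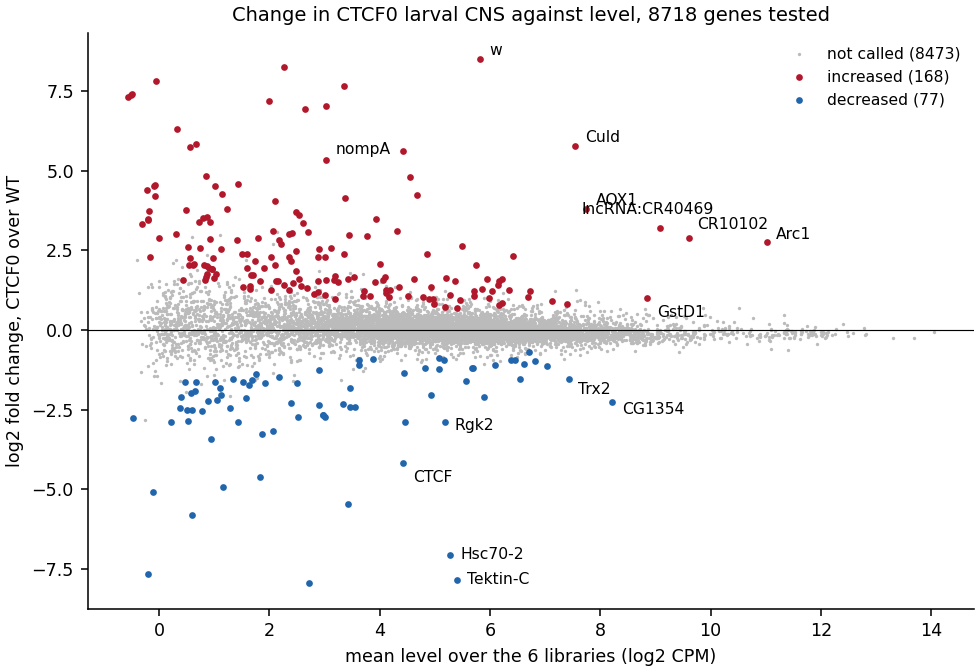
Each point is 1 of the 8718 genes tested, with its mean level over the 6 libraries (log2 CPM) on the x axis and its log2 fold change, CTCF0 over WT, on the y axis. The 168 increased genes (red) and 77 decreased genes (blue) reach from low levels up to Arc1, while most genes (grey) stay close to 0, with a median of 0.01.

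Among lists of genes with a known function, those of detoxification enzymes held the most called genes. Cytochrome P450s oxidise steroids, fatty acids, toxins and drugs. Glutathione S-transferases (Gst genes) and UDP-glycosyltransferases (Ugt genes) then couple such products to glutathione or sugars for export. Of 37 P450 genes tested, 10 were increased and 2 decreased, with a median log2 fold change of 0.57. Of 39 Gst and Ugt genes tested, 12 were increased and 1 was decreased, with a median of 0.56. These shares of increased genes, 27.0% and 30.8%, compare with 1.93% of all genes. The lists hold all 85 and 71 annotated members, and 6 P450 and 5 transferase genes passed the filter on low counts although every WT library was under 1 CPM. Among these were the increased genes Cyp4p2, Cyp4p1, Cyp6a22, Cyp6t3, Cyp6d2, GstD5, GstD2, Ugt35A1 and Ugt36A1. They passed the filter through their CTCF0 levels, which raises both shares of increased genes. Of all 8718 genes tested, 85 were under 1 CPM in every WT library.

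Among the glutathione S-transferases, the called genes were of the insect GstD and GstE classes, a split made after the values were seen. Expression was increased for 4 of 6 GstD genes and 4 of 10 GstE genes, and for 0 of 11 genes of the other classes, whose median log2 fold change was 0.00. GstD5 had 13.1, 18.1 and 17.3 CPM in CTCF0 libraries and 0.169, 0.0862 and 0.0713 CPM in WT libraries. GstD5 was thus near the detection floor in WT and readily detected in each CTCF0 library (log2 fold change 7.03, standard error 0.366, adjusted p = 4.09e-05). GstD9 had 15.3, 23.6 and 18.9 CPM in CTCF0 libraries, against 2.20, 2.67 and 2.50 CPM in WT libraries. GstD2 had 4.59, 8.29 and 5.52 CPM in CTCF0 libraries, against 0.959, 0.863 and 0.641 CPM in WT libraries. Both sets lay apart, with log2 fold changes of 2.97 for GstD9 and 2.88 for GstD2. GstD1, which encodes the abundant enzyme known for metabolising DDT, had 532, 813 and 506 CPM in CTCF0 and 305.9, 296.9 and 313 CPM in WT (log2 fold change 1.01, adjusted p = 0.0414). The call of GstD1 was lost without WT replicate 1, 2 or 3 or CTCF0 replicate 1, with an adjusted p of up to 0.194, under the RLE scaling and with the filterByExpr filter.

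GstE7 had the largest change of its class, with 6.37, 6.95 and 9.22 CPM in CTCF0 libraries and 1.30, 0.949 and 0.285 CPM in WT libraries (log2 fold change 3.11, adjusted p = 0.00696). GstE6, GstE3 and GstE1 had log2 fold changes of 2.08, 1.59 and 1.07. GstE2 did not pass the test (log2 fold change 1.79, adjusted p = 0.0725). These genes are near copies of each other that lie side by side. GstE1, GstE3, GstE6 and GstE7 lie between 18398393 and 18407688 on chromosome 2R, and GstD9, GstD1, GstD2 and GstD5 between 12366163 and 12376572 on chromosome 3R. Reads that match several copies could have been left out or counted on more than 1 copy, so the values of single members are less certain than those of the clusters.

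Cyp4p2 and Cyp4p1, adjacent P450 genes on chromosome 2R from 9237512 to 9242139, were close to absent in WT CNSs. Cyp4p2 had 176, 110 and 140 counts in the CTCF0 libraries, against 0, 1 and 0 counts in the WT libraries. The ratio was 418-fold with a 95% counting interval of 74.6 to 16530, since a single WT read sets it. Cyp4p1 had 38, 27 and 44 counts in CTCF0, against 1, 0 and 0 counts in WT, a ratio of 107-fold (95% counting interval 18.8 to 4259). The adjusted p was 0.00016 for Cyp4p2 and 0.00139 for Cyp4p1. Cyp6t3, a P450 known from ecdysone synthesis in the fly's prothoracic gland, had 9.30, 5.32 and 9.59 CPM in CTCF0 libraries and 0.508, 0.517 and 0.428 CPM in WT libraries (log2 fold change 4.04, adjusted p = 0.000575). Cyp6a22 had 21, 29 and 22 counts in CTCF0, against 0, 1 and 2 counts in WT, a ratio of 23.5-fold (95% counting interval 7.74 to 117). The remaining increased P450s were Cyp6d2, Cyp305a1, Cyp12a4, Cyp6a14, Cyp9h1 and Cyp28d1, with log2 fold changes of 1.222 to 2.27. Cyp9f3 and Cyp4e2 moved the other way. Cyp9f3 had 15.8, 16.3 and 19.5 CPM in CTCF0 and 44.0, 36.0 and 39.0 CPM in WT (log2 fold change -1.21). Cyp4e2 had 0.245, 0.425 and 0.363 CPM in CTCF0 and 3.22, 1.98 and 2.35 CPM in WT (log2 fold change -2.87).

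Of 12 Ugt genes tested, 4 were increased and 1 decreased, where 1.93% and 0.883% of all genes were. Ugt35A1 had 4.29, 3.97 and 7.26 CPM in CTCF0 libraries and 0.226, 0.431 and 0 CPM in WT libraries (log2 fold change 4.57, adjusted p = 0.00586). Ugt49C1 had 7.22, 8.22 and 11.8 CPM in CTCF0 libraries and 0.564, 2.33 and 0.641 CPM in WT libraries (log2 fold change 3.01, adjusted p = 0.0173). Ugt49C1 was not called without WT replicate 1 or 3, with an adjusted p of up to 0.0831. Ugt302C1 and Ugt36A1 increased with log2 fold changes of 1.86 and 1.93, and Ugt35C1 decreased by 2.88 on the log2 scale. Aldehyde oxidases, which are outside these lists, changed too. AOX1, on chromosome 3R from 15532137 to 15537292, had 337, 519 and 345 CPM in CTCF0 libraries and 33.2, 29.1 and 25.0 CPM in WT libraries (log2 fold change 3.78, adjusted p = 0.000106). Its neighbour AOX3, chosen after its values were seen, had a log2 fold change of 1.402. The number of increased P450s was 5 without WT replicate 1 and 6 without WT replicate 3, and 9 or 10 without any other library. The number of increased Gst and Ugt genes was 5 without WT replicate 1 and 6 without WT replicate 3, against 9 to 14 without any other library. Throughout, Cyp4p1, Cyp4p2, Cyp6a14, Cyp6a22, Cyp6t3, GstD2, GstD5, GstD9, GstE7 and Ugt35A1 stayed increased, and Cyp4e2 and Ugt35C1 stayed decreased.

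**Figure D2:**
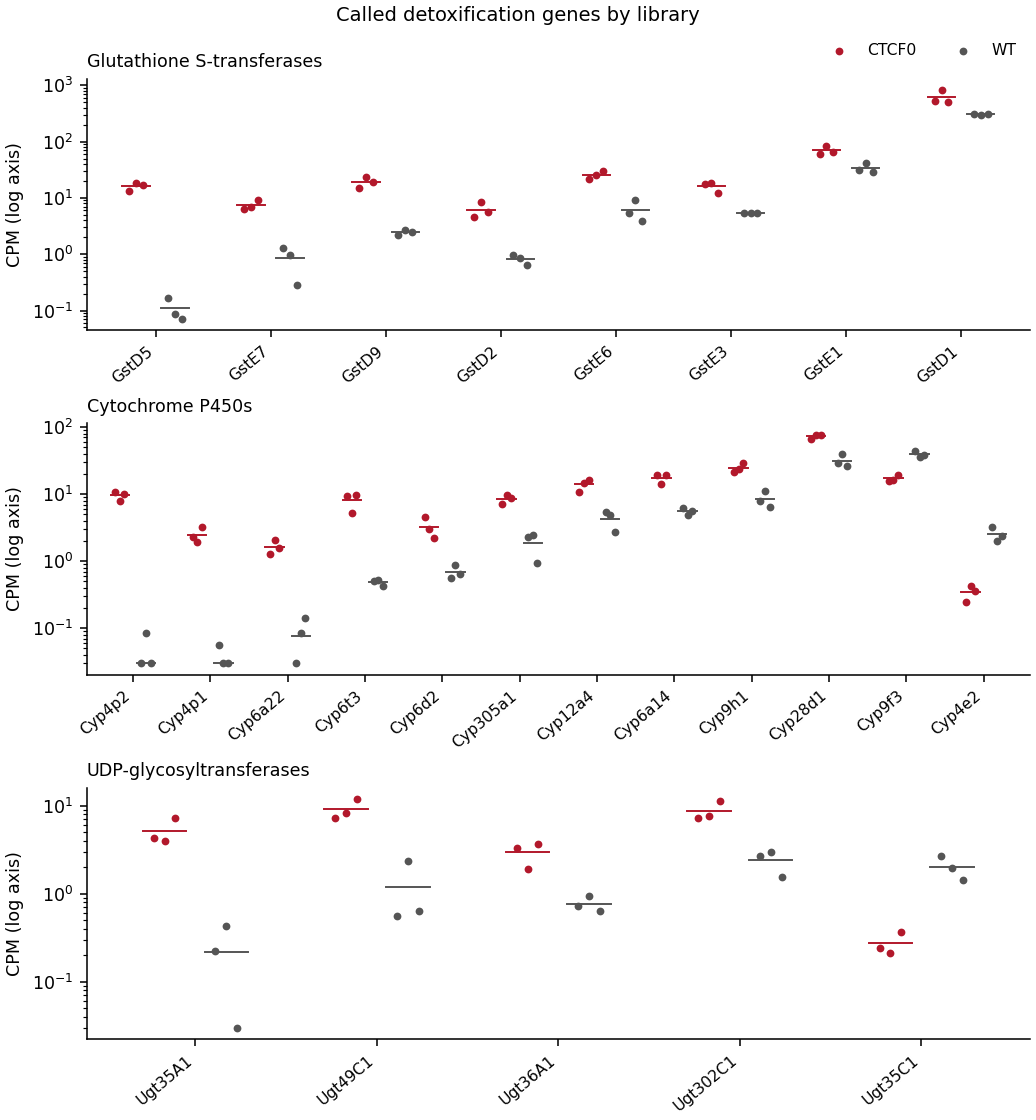
Each point is the level (CPM, log axis) of a called detoxification gene in 1 library, with 3 CTCF0 libraries (red, left) and 3 WT libraries (grey, right) per gene and a line at each mean, and values under 0.03 drawn at 0.03. GstD5, Cyp4p2, Cyp4p1 and Ugt35A1 are near or below the detection floor in WT, and only Cyp9f3, Cyp4e2 and Ugt35C1 are lower in CTCF0.

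Each list of general stress responses held at most 1 called gene per direction. Of 20 tested genes for oxidative and unfolded protein stress, 1 was increased (GstD1, 5% against 1.93% of all genes) and 1 decreased (5% against 0.883%), with a median log2 fold change of -0.02. The decreased gene was Trx2, which encodes a cytosolic thioredoxin that keeps protein thiols reduced. Trx2 had 83.5, 94.1 and 87.2 CPM in CTCF0 libraries and 242, 271 and 256 CPM in WT libraries (log2 fold change -1.54, standard error 0.147, adjusted p = 0.000857). Of 21 tested heat shock proteins and chaperones, 0 were increased and 1 was decreased (Hsc70-2, 4.76% against 0.883% of all genes). Single calls in lists of this size say little about these classes.

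Of 26 tested genes for innate immunity, 5 were increased (19.2% against 1.93% of all genes) and 0 decreased, with a median log2 fold change of 0.40. Of the 26, 3 were under 1 CPM in every WT library, among them the called genes CecA2 and GNBP2. They passed the filter through their CTCF0 levels, which raises the share of increased genes. CecA2, a cecropin with antimicrobial activity, had 20, 24 and 21 counts in CTCF0 libraries and 6, 3 and 4 counts in WT libraries (log2 fold change 2.28, adjusted p = 0.00993). CecA1 had 47, 47 and 31 counts in CTCF0, against 8, 12 and 15 counts in WT (log2 fold change 1.76, adjusted p = 0.0482). The cecropin genes had fewer than 50 reads in every library. GNBP2 and GNBP1, members of the family that recognises microbial glucans, had log2 fold changes of 1.56 and 1.04. The virus-induced gene vir-1 had 110, 85.0 and 146 CPM in CTCF0 libraries and 38.9, 62.2 and 43.8 CPM in WT libraries (log2 fold change 1.24, adjusted p = 0.043). Other genes of this kind were called outside the list and were chosen after their values were seen. Anp, a cecropin relative known from the male ejaculatory duct, had 22, 26 and 14 counts in CTCF0 and 0 counts in every WT library, so that it was at least 20.3-fold higher. It lies beside CecA1 and CecA2 on chromosome 3R. The antimicrobial peptide gene BaraA1, the Toll pathway protease gene modSP and the immune-regulated catalase gene Irc had log2 fold changes of 1.90, 1.48 and 1.54. BaraA1 has a near-identical copy with almost the same values, so its reads may belong to either. These calls rested on single libraries. Without WT replicate 1 or WT replicate 3, 0 of the 26 genes were called, without CTCF0 replicate 1 there was 1, without WT replicate 2 there were 2, and without CTCF0 replicate 2 there were 8. With the replicate number as a block, 0 of the listed genes were called. Blood cell markers summed to 141 to 189 CPM in CTCF0 and 105 to 144 CPM in WT, and Pxn, at 127 to 168 CPM in CTCF0 and 96.0 to 138 CPM in WT, made up most of these sums. The markers He, eater and NimC1 were under 0.4 CPM in each library. The 3 of 8 markers tested, Hml, PPO2 and Pxn, had log2 fold changes of 2.97, 0.89 and 0.28, and none was called. Hml, made by plasmatocytes, had 8.14, 1.49 and 1.74 CPM in CTCF0 and 0.226, 1.21 and 0.143 CPM in WT (adjusted p = 0.188), so its libraries did not overlap. The part of blood cells in the immune and detoxification values was not tested.

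Arc1 and Arc2, which derive from a retrotransposon Gag protein and form capsids that carry RNA across synapses in flies, were both increased. Arc1 (chromosome 2R from 14357927 to 14360297) had 3760, 3683 and 3357 CPM in CTCF0 libraries and 472, 556 and 585 CPM in WT libraries (log2 fold change 2.74, standard error 0.162, adjusted p = 6.49e-05). Arc2 had 26.7, 35.8 and 25.5 CPM in CTCF0 libraries and 11.1, 12.5 and 11.1 CPM in WT libraries (log2 fold change 1.35, adjusted p = 0.00884). The Arc2 call was lost without WT replicate 1 or 3, with an adjusted p of up to 0.0671. Between both lies CR10102, annotated as a pseudogene, which had 1401, 1452 and 1264 CPM in CTCF0 libraries and 185, 178 and 199 CPM in WT libraries (log2 fold change 2.87, adjusted p = 4.44e-05). Since CR10102 and the Arc genes are related in sequence and adjacent, reads of one could have been counted on another. Arc1, CR10102 and GstD1 were among the 4 increased genes with the highest mean CPM, and the other was the noncoding RNA gene lncRNA:CR40469.

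Other neuronal classes with a called gene held 1 or 2 each. Of 37 neuropeptide genes tested, 2 were increased (5.41% against 1.93% of all genes) and 0 decreased, while 30 had a log2 fold change above 0. Without overlap, 8 of the 37 were higher in CTCF0 and 1 was lower, against 10% and 7.35% of all genes. DESeq2 called 8 neuropeptide genes increased. Akh, the adipokinetic hormone made in the corpora cardiaca of the ring gland, had 25.0, 24.0 and 22.9 CPM in CTCF0 libraries and 10.4, 10.2 and 11.8 CPM in WT libraries (log2 fold change 1.15, adjusted p = 0.00964). Mip, which encodes myoinhibitory peptides, had 35.4, 41.3 and 41.0 CPM in CTCF0 and 20.1, 21.8 and 18.8 CPM in WT (log2 fold change 0.95, adjusted p = 0.0167). Both groups of values lay apart by less than 3-fold. Of 34 voltage-gated and potassium channel genes, Ork1, a potassium leak channel, was the 1 that increased (2.94%). It had 3.86, 4.75 and 5.81 CPM in CTCF0 and 1.30, 1.47 and 0.998 CPM in WT (log2 fold change 1.93, adjusted p = 0.00857). Of 53 genes of the dpr, DIP, beat and side families of cell surface proteins, dpr16 was the 1 that increased (1.89%). It had 38.8, 49.8 and 42.3 CPM in CTCF0 and 19.2, 15.01 and 17.1 CPM in WT (log2 fold change 1.35, adjusted p = 0.00532). The channel and dpr shares were close to the 1.93% of all genes. Akh, Mip and Ork1 were not called without WT replicate 1 or WT replicate 3, and dpr16 was called without any library. Of the neuropeptide genes, 7 were increased without CTCF0 replicate 2, 3 without CTCF0 replicate 3, 1 without WT replicate 2 and 0 without any other library. Of the channel genes, 7 were increased without CTCF0 replicate 2, 2 without CTCF0 replicate 3, 1 without CTCF0 replicate 1 or WT replicate 2, and 0 without WT replicate 1 or 3.

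Of 28 tested cilium and axoneme genes, 3 were increased (10.7% against 1.93% of all genes) and 0 decreased, with a median log2 fold change of 0.22. Of the 28, 2 were under 1 CPM in every WT library, among them the called gene nompA. They passed the filter through their CTCF0 levels, which raises the share of increased genes. nompA encodes a matrix protein that joins mechanosensory cilia to the cuticle, and had 19.0, 15.8 and 12.9 CPM in CTCF0 libraries and 0.451, 0.259 and 0.428 CPM in WT libraries (log2 fold change 5.32, adjusted p = 7.37e-05). IFT52, a subunit of the intraflagellar transport machinery, had 49.5, 44.4 and 41.6 CPM in CTCF0 and 1.35, 1.73 and 1.78 CPM in WT (log2 fold change 4.81, adjusted p = 2.17e-05). Oseg4, also an intraflagellar transport gene, had 16.2, 24.3 and 14.96 CPM in CTCF0 and 8.52, 6.38 and 8.62 CPM in WT, a change that 4 of the 6 fits with a library left out did not call (log2 fold change 1.23, adjusted p = 0.0418 with all libraries and up to 0.159 without one). Tektin-C, which encodes a filament protein of ciliary and flagellar microtubules and was not in the list, moved the other way. Tektin-C had 9, 4 and 3 counts in CTCF0 libraries and 1254, 1276 and 1015 counts in WT libraries (log2 fold change -7.84, standard error 0.365, adjusted p = 2.69e-05). Of 186 chemoreceptor genes listed, only 11 were tested. Of these 11, 2 were increased (18.2% against 1.93% of all genes) and 0 decreased. Ir76a, an ionotropic olfactory receptor, had 57.6, 49.5 and 59.3 CPM in CTCF0 and 14.96, 22.6 and 16.7 CPM in WT (log2 fold change 1.62, adjusted p = 0.0041). Or67d, the receptor for a male pheromone, had 9.30, 6.45 and 15.3 CPM in CTCF0 and 0.677, 1.12 and 0.641 CPM in WT (log2 fold change 3.69, adjusted p = 0.00263). Culd, which is in none of the lists and encodes a transmembrane protein known from rhodopsin traffic in photoreceptors, lies on chromosome 3L from 8352355 to 8356296. Culd had 406, 272 and 422 CPM in CTCF0 and 8.24, 6.04 and 5.84 CPM in WT (log2 fold change 5.76, adjusted p = 2.69e-05). Markers of eye and imaginal disc summed to 46.4 to 89.1 CPM in CTCF0 and 57.2 to 87.2 CPM in WT, with ninaE at 3 counts or fewer in every library. Most of these sums came from norpA, at 28.4 to 62.5 CPM in CTCF0 and 34.2 to 62.5 CPM in WT.

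Of 20 tested genes of the piRNA pathway and the germline, 0 were increased and 1 was decreased, which was bam (5% against 0.883% of all genes). Other genes known from the germline, outside the list and named for the size of their change, were called in either direction. bam, which drives germline stem cells into differentiation, had 17, 8 and 13 counts in CTCF0 libraries and 59, 40 and 53 counts in WT libraries (log2 fold change -2.03, adjusted p = 0.00812). tut, which acts with bam in the testis and was not in the list, had 3, 1 and 2 counts in CTCF0 and 88, 47 and 56 counts in WT (log2 fold change -4.92, adjusted p = 0.000287). Sdic3 and SdicA, near-identical copies of a sperm dynein gene on the X chromosome, had almost the same counts as each other. SdicA had 16, 13 and 62 counts in CTCF0 and 204, 193 and 177 counts in WT (log2 fold change -2.68, adjusted p = 0.0448). The Sdic genes cannot be counted apart, so both calls may rest on the same reads. Their calls were lost in 4 of the 6 fits with a library left out, with an adjusted p of up to 0.128. Prosbeta2R1, a proteasome subunit of the male germline, moved the other way. Prosbeta2R1 had 189, 162 and 195 counts in CTCF0 and 2, 2 and 0 counts in WT (log2 fold change 6.94, adjusted p = 0.000154). Of the testis markers, 3 passed the filter, and all 3 were higher in CTCF0 without overlap, as were 10% of all genes, but none was called. The roX and male markers summed to 319 to 1086 CPM in CTCF0 and 439 to 684 CPM in WT, so the groups overlapped.

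The remaining genes with the largest decreases have varied functions. Hsc70-2, a heat shock cognate gene on chromosome 3R from 13044759 to 13047388, had 11, 6 and 8 counts in CTCF0 libraries and 666, 990 and 1525 counts in WT libraries (log2 fold change -7.07, adjusted p = 0.000216). Its neighbour CG31157 had 1, 1 and 0 counts in CTCF0 and 107, 205 and 221 counts in WT, so that it was 272-fold lower in CTCF0 (95% counting interval 74.9 to 2250). In the WT control of the other experiment, Hsc70-2 had 1.03, 0.740 and 22.7 CPM and CG31157 had 0.0985, 0.123 and 4.28 CPM, so that in 2 of those 3 WT libraries both genes were nearly as low as in CTCF0. The ring gland marker sad was low in the same 2 libraries, with 3.84, 7.46 and 102.9 CPM in that control. In the libraries compared here, sad had 54.6 to 85.2 CPM in CTCF0 and 56.1 to 74.9 CPM in WT. Whether ring gland content bears on Hsc70-2 and CG31157 was not tested. CG11668, on the other side of Hsc70-2, was increased with a log2 fold change of 2.95. thw, a zona pellucida domain gene, had 0.367, 0.213 and 0.218 CPM in CTCF0 and 6.04, 8.71 and 5.84 CPM in WT (log2 fold change -4.62). Rgk2, a small GTPase of the family that inhibits calcium channels, had 8.57, 5.03 and 12.2 CPM in CTCF0 and 68.2, 63.1 and 59.8 CPM in WT (log2 fold change -2.89, adjusted p = 0.00168). GILT3, a lysosomal thiol reductase gene, had 2.999, 4.75 and 2.69 CPM in CTCF0 and 16.9, 19.5 and 19.1 CPM in WT (log2 fold change -2.41). Pms2, a DNA mismatch repair gene, had 2.20, 1.20 and 1.89 CPM in CTCF0 and 10.3, 8.97 and 6.84 CPM in WT (log2 fold change -2.29). The carboxylesterase gene alpha-Est5 decreased by 2.45 on the log2 scale. NLaz, a secreted lipid carrier of the lipocalin family, had 22.8, 26.3 and 19.0 CPM in CTCF0 and 102, 39.4 and 149 CPM in WT (log2 fold change -2.09, adjusted p = 0.0409), and its call was lost in 4 of the 6 fits with a library left out, with an adjusted p of up to 0.144. Among genes known by number only, CG4741 and CG3358 decreased by 3.25 and 2.89 on the log2 scale. CG3358 had 5.94, 4.75 and 5.01 CPM in CTCF0 and 39.6, 37.6 and 39.6 CPM in WT. By mean CPM the leading decreased genes were CG1354, Trx2, CG15478 and CG14321, with log2 fold changes of -2.26, -1.54, -1.12 and -0.99. CG15478 and CG14321 were each called in 3 of the 6 fits with a library left out, with an adjusted p of up to 0.0923 for CG15478 and 0.113 for CG14321.

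**Figure D3:**
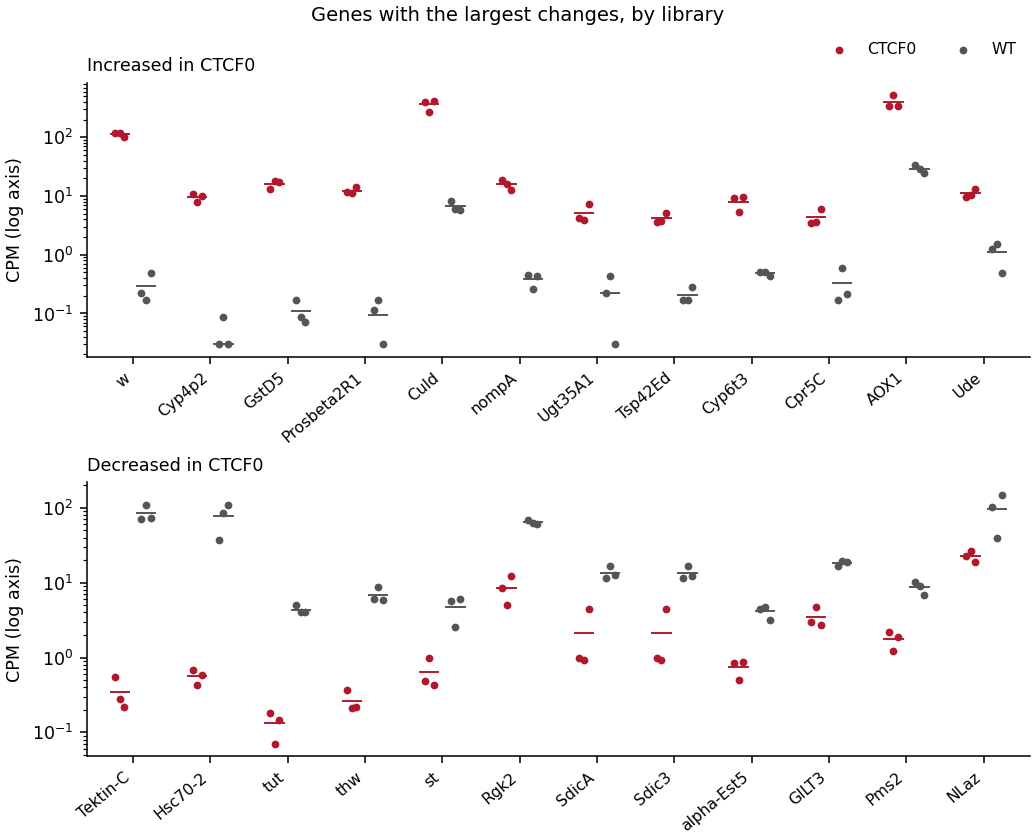
The 12 increased and 12 decreased genes with the largest changes, chosen from called genes with a symbol that the paper does not name and a mean log2 CPM of 1 or more, are shown by their level (CPM, log axis) in 3 CTCF0 libraries (red, left) and 3 WT libraries (grey, right), with lines at the means and values under 0.03 drawn at 0.03. The choice also asked that libraries do not overlap between genotypes, so no gene shown overlaps. NLaz comes closest, with 26.3 CPM in a CTCF0 library and 39.4 CPM in a WT library.

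The eye colour gene w had the largest fitted increase. It encodes a transporter subunit that imports pigment precursors, and had 1978, 1645 and 1374 counts in CTCF0 libraries and 4, 2 and 7 counts in WT libraries (log2 fold change 8.51, standard error 0.314, adjusted p = 1.45e-05). Because the control strain was w1118, the difference in w and the strain cannot be told apart. Of 17 tested genes of the eye pigment pathway, 2 were increased (11.8% against 1.93% of all genes) and 1 was decreased (5.88% against 0.883%). The increased genes, w and cd, were under 1 CPM in every WT library. They passed the filter through their CTCF0 levels, which raises the share of increased genes. cd, a peroxidase gene needed for brown pigment, had 35, 32 and 40 counts in CTCF0 and 7, 10 and 8 counts in WT (log2 fold change 2.03, adjusted p = 0.0186). st, which encodes a partner of the w transporter, had 8, 14 and 6 counts in CTCF0 and 101, 30 and 84 counts in WT (log2 fold change -2.90, adjusted p = 0.0117). The calls of cd and st were lost without WT replicate 1, and that of cd also without WT replicate 3 (adjusted p up to 0.102 for cd and 0.0562 for st).

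Further large increases were spread over several functions. CG34138, on chromosome 3R from 19634949 to 19635879, had 361, 236 and 301 counts in CTCF0 libraries and 2, 0 and 2 counts in WT libraries (log2 fold change 7.66, adjusted p = 6.49e-05). CG15506 had 678, 532 and 653 counts in CTCF0 and 15, 9 and 13 counts in WT (log2 fold change 5.62, adjusted p = 1.45e-05). Tsp42Ed, a tetraspanin gene, had 3.55, 3.83 and 5.23 CPM in CTCF0 and 0.169, 0.172 and 0.285 CPM in WT (log2 fold change 4.28). Ude, which encodes a nuclease acting on DNA that contains uracil, had 9.79, 10.3 and 13.4 CPM in CTCF0 and 1.24, 1.55 and 0.499 CPM in WT (log2 fold change 3.35, adjusted p = 0.00227). CG12224 increased with a log2 fold change of 4.52. RpS28a, a little expressed copy of a ribosomal protein gene, had 23, 28 and 26 counts in CTCF0 and 3, 3 and 4 counts in WT (log2 fold change 2.87, adjusted p = 0.00497). It was the 1 of 83 tested cytoplasmic ribosomal protein genes that was increased (1.2% against 1.93% of all genes), where 0 were decreased. Cuticle protein genes changed both ways, with 1 increased (Cpr5C, log2 fold change 3.80) and 2 decreased (Cpr78E and Cpr65Ec, -1.83 and -1.37) of 19 tested. These were 5.26% and 10.5% of those tested, against 1.93% and 0.883% of all genes. Cpr65Ec was not called in 3 of the 6 fits with a library left out, with an adjusted p of up to 0.0973. Of 17 tested serine proteases and their inhibitors, the serpin gene Spn43Ab was the 1 that increased (5.88% against 1.93% of all genes). Spn43Ab had a log2 fold change of 1.61, and it was not called without WT replicate 1 or 3 (adjusted p up to 0.188).

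Markers of glia and of muscle were higher in CTCF0 libraries. The 10 glial markers summed to 1248, 1284 and 1627 CPM in CTCF0 and 896, 1070 and 808 CPM in WT, so the groups did not overlap. All 10 had a positive log2 fold change, with a median of 0.47, and 4 had libraries higher in CTCF0 without overlap, against 10% of all genes. Only Mdr65, a transporter of the glial blood-brain barrier, was called, with 203, 210 and 233 CPM in CTCF0 and 120, 141 and 106 CPM in WT (log2 fold change 0.82, adjusted p = 0.0372). This call was kept only without CTCF0 replicate 2 among the 6 fits with a library left out, and the adjusted p reached 0.271. The 11 muscle markers summed to 66.4 to 87.7 CPM in CTCF0 and 40.5 to 53.04 CPM in WT. The muscle myosin light chain gene Mlc2 was called, with 19.7, 22.7 and 24.1 CPM in CTCF0 and 6.55, 11.5 and 5.63 CPM in WT (log2 fold change 1.498, adjusted p = 0.0306, and up to 0.166 with a library left out). TpnC47D, a troponin C gene outside the list and chosen after its values were seen, had a log2 fold change of 2.82. The part of glia and of muscle tissue in the other changes was not tested. Fat body markers summed to 130 to 238 CPM in CTCF0 and 209 to 380 CPM in WT and were not called, nor were those of salivary glands and tracheae. Most of the fat body sums came from apolpp, at 124 to 232 CPM in CTCF0 and 201 to 368 CPM in WT.

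Noncoding RNA genes were called more often than protein-coding ones, at 8.90% of 191 tested against 2.64% of 8404 tested. Of 210 genes listed as long noncoding, antisense or CR genes, 14 were increased (6.67% against 1.93% of all genes) and 5 decreased (2.38% against 0.883%). Of the 210, 9 were under 1 CPM in every WT library, among them the increased genes lncRNA:CR43682, lncRNA:CR44539, lncRNA:CR45386, asRNA:CR45600 and CR44383. They passed the filter through their CTCF0 levels. This raises the share of increased genes in the list and the share called among noncoding RNA genes. lncRNA:CR40469, an X-linked noncoding RNA gene, had 1198, 1167 and 553 CPM in CTCF0 libraries and 95.3, 130 and 92.4 CPM in WT libraries (log2 fold change 3.20, adjusted p = 0.00148). lncRNA:CR43682 had 28, 18 and 18 counts in CTCF0 and 0 in every WT library, at least 20.9-fold higher. lncRNA:CR44539 had 17, 20 and 22 counts in CTCF0 and 0 in every WT library, at least 19.3-fold higher. Both were listed at 0 in all 6 libraries of the other experiment. lncRNA:CR45386 had 60, 54 and 17 counts in CTCF0 and 0, 1 and 1 counts in WT, a ratio of 64.2-fold (95% counting interval 17.4 to 536). CR44383 had 146, 128 and 79 counts in CTCF0 and 0, 0 and 2 counts in WT, a ratio of 173-fold (95% counting interval 47.5 to 1434). CR44383, annotated as a pseudogene, adjoins sordd2, which was also increased (log2 fold change 0.97), and how the counting used strand is not given in the sources used here. lncRNA:CR45973 decreased by 3.18 on the log2 scale, and this call was lost without CTCF0 replicate 1 or WT replicate 3. Of 32 tested small nuclear and nucleolar RNA genes, 0 were increased and 2 were decreased (6.25% against 0.883% of all genes). Their median log2 fold change was -0.46. Without overlap, 10 were lower in CTCF0 and 1 was higher, against 7.35% and 10% of all genes. The decreased genes were scaRNA:MeU5-C46 and scaRNA:PsiU5-44, with log2 fold changes of -1.65 and -1.63. Poly(A) selection captures such RNAs poorly, and their calls were lost without CTCF0 replicate 1 or WT replicate 3, and that of scaRNA:PsiU5-44 also without WT replicate 1. The histone gene His2B:CG33880 was called decreased (log2 fold change -1.34, adjusted p of up to 0.148 with a library left out), and its sequence is repeated in the histone cluster.

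**Figure D4:**
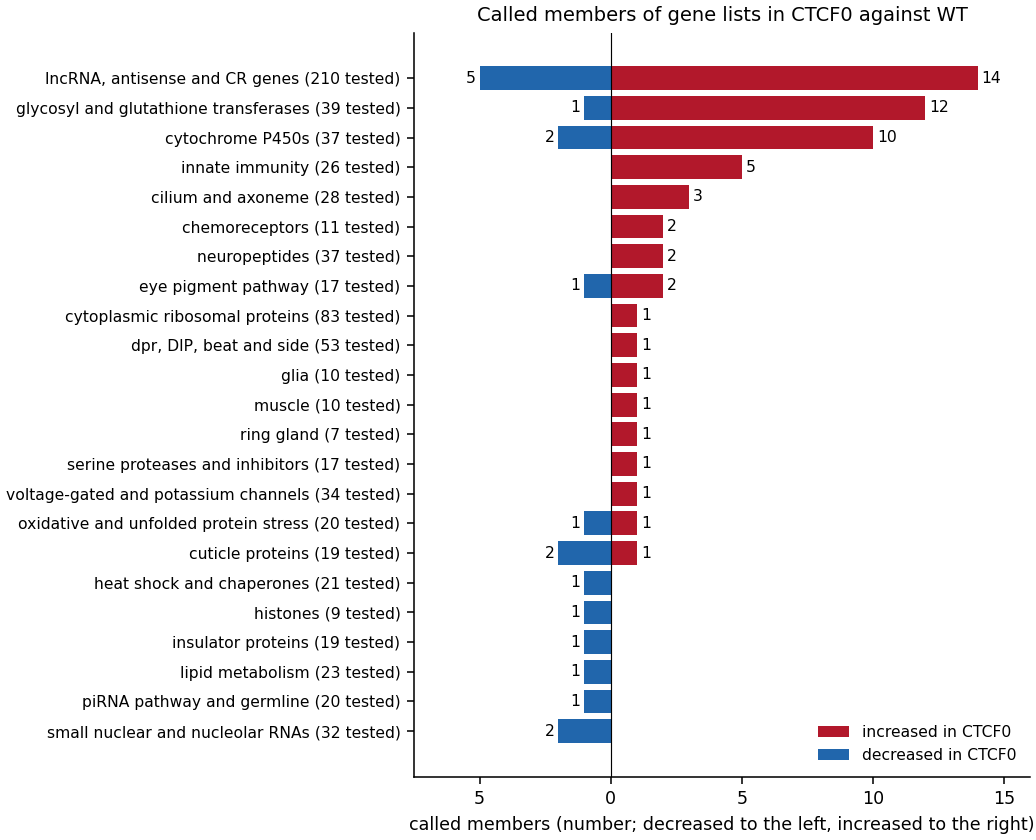
Bars give the number of called members (x axis) of the gene lists on the y axis with at least 5 tested and 1 called member, increased in CTCF0 to the right (red) and decreased to the left (blue). The long noncoding, transferase and P450 lists hold 14, 12 and 10 increased genes and the innate immunity list 5, while each other list has 3 or fewer called members in either direction.

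Of 60 lists, 35 had tested members and 0 called genes. They are picked out here by that outcome, so their count is a description only, and some are markers of tissues other than the CNS. These lists hold the Hox genes (6 tested), the Polycomb group (21) and the Trithorax group (16), cohesin and condensin (17), the Notch pathway (26), ecdysone response genes (19) and temporal patterning factors (14). They also hold genes for synaptic vesicle release (30), transmitter synthesis (22), GABA and glutamate receptors (17), amine and peptide receptors (49), axon guidance (36), the cell cycle and DNA replication (55), mitochondrial ribosomes (71) and oxidative phosphorylation (67). The median log2 fold change was -0.17 for mitochondrial ribosomal genes, -0.20 for oxidative phosphorylation, -0.04 for the cell cycle, 0.23 for synaptic vesicle release and 0.31 for GABA and glutamate receptors. For the Hox genes it was -0.40, and 2 of 6 had a log2 fold change above 0. Ubx and Scr were lower in CTCF0 without overlap, as were 7.35% of all genes. Their log2 fold changes were -1.08 and -0.75, with adjusted p-values of 0.17 and 0.33 by edgeR. A gene that misses the threshold is not thereby shown to be unchanged.

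Called genes lay close to each other more often than genes that were not called. Another called gene was found within 10 kb for 48 of 167 increased genes and 19 of 77 decreased genes with a position, or 27.5% of called genes. The same was true of 8.60% of tested genes that were not called. In all, 67 called genes formed 29 groups with gaps of at most 10 kb. In 17 groups all genes were increased, in 6 all were decreased, and 6 groups held both directions. The clusters of GstE, GstD, Arc and cecropin genes were among the 7 groups of 3 or more genes. Others were subdued, CG34138 and CG31220 on chromosome 3R from 19633418 to 19650586, and Cpr5C, Prosbeta2R1 and AgmNAT on the X chromosome from 5804677 to 5815820, all increased. pst, next to CTCF, increased with a log2 fold change of 0.72. Neighbours can share reads where genes overlap, and several groups are duplicated genes. By chromosome arm, the share called was 3.97% on 3R, 2.95% on 3L, 2.70% on 2R, 2.13% on the X and 1.99% on 2L. On chromosome 4, 0 of 82 tested genes were called by edgeR and 3 by DESeq2.

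Many increased genes had low levels in WT CNSs. Of the 168 increased genes, 55 were under 1 CPM in each WT library of the comparison, which the filter favours because these genes were kept through their CTCF0 levels. The WT libraries of the other experiment were not used for the calls. In all 3 of these, 53 of the increased genes were under 1 CPM. The same filter acts on this count, and nothing is read from it about increased genes as a class. Among the decreased genes, 26 were under 1 CPM in every CTCF0 library.

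The changes in CTCF0 CNSs were set against those in CNSs labelled Cp190KO, each relative to its own WT control, to see where they differ. Cp190 counts did not separate the libraries of that experiment by their labels, so the groups are named as labelled, and replicate 3 of Cp190KO held fewer genes with 1 to 3 counts (375) than the other 11 libraries (1738 to 2199). The experiments also differed in read length and sequencer. For some called genes the WT control of the other experiment lay closer to CTCF0 than to the WT control used for the calls. GstD1 had 464, 614 and 548 CPM in that control, Ork1 had 4.78, 5.12 and 3.24 CPM, and Mlc2 had 17.98, 17.6 and 13.8 CPM. Among decreased genes, His2B:CG33880 had 9.46, 4.63 and 13.1 CPM there, and scaRNA:MeU5-C46 had 0.837, 1.79 and 2.11 CPM. The reason for these differences between controls was not tested. In a model of all 12 libraries, the change differed for 127 of 8954 genes tested (1.42%) at an adjusted p-value under 0.05, and for 617 at an unadjusted one. Of the 245 genes called in CTCF0, 55 differed, 36 increased and 19 decreased ones. The same CTCF0 and WT libraries entered the calls and the difference, which favours a larger share among called genes. Nothing is read from that share. For the other 190 the difference missed the threshold, which does not show that they act alike.

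Some leading genes moved in CTCF0 and stayed close to WT in the other mutant. Culd had 6.67, 7.91 and 8.58 CPM in libraries labelled Cp190KO and 8.27, 8.33 and 9.39 CPM in their WT, and the difference between the changes was 5.93 on the log2 scale (standard error 0.302, adjusted p = 3.22e-07). AOX1 had 31.2, 51.6 and 36.3 CPM in libraries labelled Cp190KO and 52.5, 71.5 and 38.5 CPM in their WT, with a difference of 4.24 (adjusted p = 6.03e-05). CG3358 and CG1354 differed by -3.02 and -2.25, with log2 fold changes of 0.13 and -0.01 in the other mutant. st differed by -6.63 (adjusted p = 0.00034), with 135, 43.9 and 66.9 CPM in libraries labelled Cp190KO and 4.04, 6.41 and 7.86 CPM in their WT. Arc1 was increased in both, with a smaller change in libraries labelled Cp190KO (log2 fold change 1.41, difference 1.35, adjusted p = 0.00588). For several other genes both changes passed the test and their difference did not. Tektin-C had log2 fold changes of -7.84 in CTCF0 and -6.39 in libraries labelled Cp190KO (adjusted p of the difference = 0.945). lncRNA:CR40469 had 3.20 and 3.51 (adjusted p of the difference 1.00), Rgk2 -2.89 and -2.34, dpr16 1.35 and 1.84, and Cyp6a22 4.39 and 4.51. Cyp4p2, at 10.8, 7.80 and 10.2 CPM in CTCF0, was at most 0.83 CPM in libraries labelled Cp190KO and 0.147 CPM in their WT, and the difference between the changes did not pass the test (adjusted p = 0.355).

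**Figure D5:**
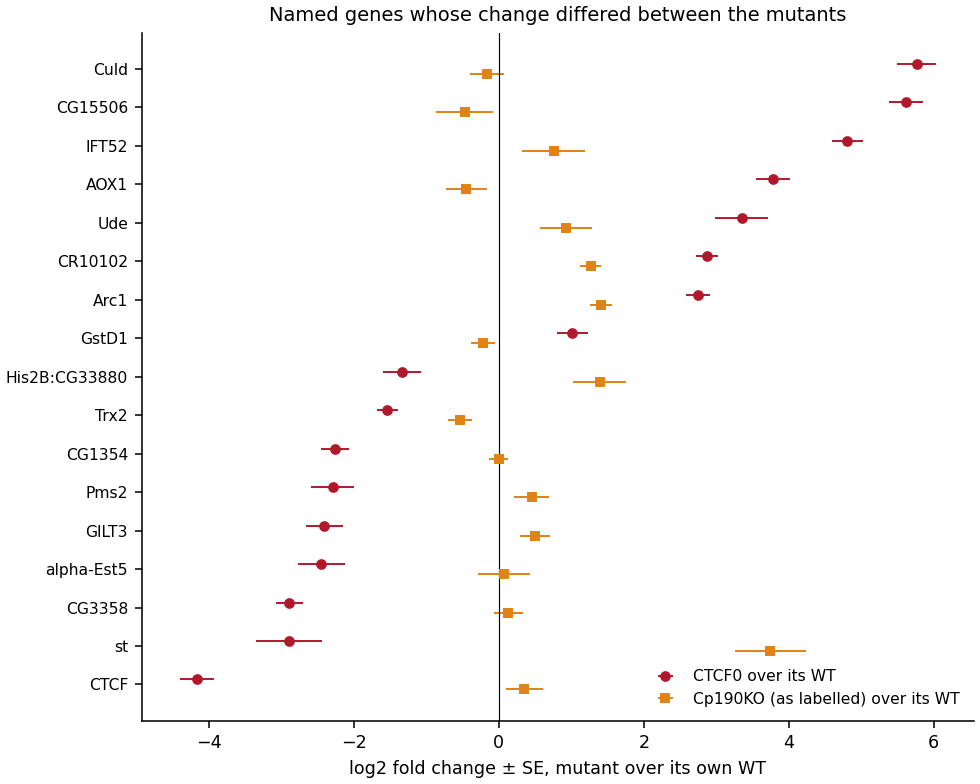
Points give the log2 fold change (x axis) with its standard error for named genes (y axis) whose change differed between the mutants and could be fitted in both, for CTCF0 (red circles) and for libraries labelled Cp190KO (orange squares), each over its own WT. Culd, CG15506 and IFT52 lie far to the right in CTCF0 and between -0.47 and 0.76 in the other mutant, while st lies at -2.90 in CTCF0 and at 3.75 in the other mutant.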

How the data were processed

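Poly(A) RNA of 3 CTCF0 and 3 WT samples was sequenced from both ends of each fragment, with reads of 100 bp and a strand-specific kit. The deposited values are counts per gene, whole numbers that were not normalized. The authors mapped reads to dm6 with FlyBase gene models, and counting used HTSeq 0.9.1 per the submitters' processing notes. Its strand option and overlap mode are not given in the sources used here. Lines for unassigned reads, 22.6% to 34.8% of reads per library, were left out. Genes were kept where 3 or more of the 6 libraries reached 1 CPM, scaled by TMM and tested with edgeR 4.0.16 (robust quasi-likelihood test, R 4.3.3), with p-values adjusted by Benjamini-Hochberg across every gene kept. A standard error is the size of the log2 fold change divided by the square root of the F statistic. The difference from Cp190KO was a contrast in a model of all 12 libraries. Names and dm6 positions came from an Ensembl annotation, which lists 17405 of 17510 genes. The scripts were checked on simulated data.

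Groups were read from the labels, and the study describes its replicates as biological. The comparison, the gene lists, the markers and the genes named were chosen with earlier results of these data known. The rule for names took the 12 increased and 12 decreased genes of largest change with a symbol, and 4 of each direction known by number. These had to be called, to have libraries that did not overlap, to reach a mean log2 CPM of 1 and not to be named in the paper. It also took the 4 genes of each direction with the highest mean CPM, up to 4 called members per list, and CTCF. Other genes named were picked once their values were known, or are called members of a list or of a group of neighbours. Alternatives were other scaling factors, filters and thresholds, DESeq2 1.42.0, the replicate number as a block, a fit of the whole series, and each library left out.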

Additional observations from a re-analysis of the deposited data

Results flagged for a closer look

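For 26 of the 72 named genes that were called, the change in CTCF0 differed from that in libraries labelled Cp190KO by the test of the difference in one model (edgeR, adjusted p under 0.05), which is what marked them here. The genes were named from CTCF0 libraries that also enter this difference, so their number is a description only. Values are the log2 change in CTCF0 minus the log2 change in the other mutant. The CTCF0 change was the higher one for Culd (5.93), CG15506 (6.09), IFT52 (4.05), AOX1 (4.24), Ude (2.42), GstD1 (1.25), Arc1 (1.35) and CR10102 (1.61). GstD1, at an adjusted p of 0.0492, and w, at 0.0494, were closest to the threshold. The same held for genes of few reads in the other experiment, w (6.96), CG34138 (8.29), nompA (5.49), Tsp42Ed (3.32) and Or67d (3.26). The CTCF0 change was the lower one for CTCF (-4.52), st (-6.63), CG3358 (-3.02), GILT3 (-2.89), Pms2 (-2.74), His2B:CG33880 (-2.72), alpha-Est5 (-2.52), CG1354 (-2.25) and Trx2 (-0.99). For Prosbeta2R1 (9.99), lncRNA:CR45386 (7.92), SdicA (7.60) and Sdic3 (7.61), at least 1 of the 4 groups held 3 counts or fewer in all, so the size of the difference depends on the prior count of the fit and is no bound. SdicA and Sdic3 had 0 counts in each library labelled Cp190KO. No group had enough libraries for a test of single outlying values.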

How the results depend on the processing

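The counts of called genes moved most. Against 168 increased and 77 decreased genes, there were 258 and 134 with DESeq2, 262 and 120 with no filter beyond 1 count, and 83 and 36 at an adjusted p under 0.01. With the replicate block there were 101 and 44. The replicate numbers did not pair the samples, since same-numbered libraries deviated from their group means with correlations of -0.49 to -0.16. With a library left out and genes filtered anew, the increased genes ranged from 53 to 300 and the decreased genes from 23 to 256. Leaving out a CTCF0 library while still asking for 3 libraries over 1 CPM removes genes seen only in CTCF0, so fits with the same genes tested were added after seeing the data. In these, increased and decreased genes numbered 105 and 42 without CTCF0 replicate 1, 410 and 241 without CTCF0 replicate 2, 74 and 45 without WT replicate 1, and 81 and 42 without WT replicate 3. The 127 genes whose change differed between mutants became 213 with DESeq2 and 60 with the replicate block, and ranged from 69 to 141 with a library left out. The log2 fold change of CTCF stayed between -4.36 and -4.01 in all fits run. RLE, upper quartile and unscaled library sizes left both counts within 1.5 times, and no named gene changed its direction under any alternative run. Of 72 named genes, 46 kept their call in each of the 6 fits with a library left out and the same genes tested, and 18 lost it with the replicate block. The share of promoters with the CTCF motif was not run, since no genome sequence was used here. With 3 libraries a group, genes near 1 CPM rest on few reads.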

Other observations

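Further called genes outside the lists, chosen after their values were seen, are given as single genes with no shared theme tested. upd2, a ligand of the JAK/STAT pathway, had 2.26, 2.27 and 5.08 CPM in CTCF0 libraries and 0.339, 0.259 and 0.214 CPM in WT libraries (log2 fold change 3.50, adjusted p = 0.0069). Ets21C, a transcription factor induced by stress in flies, had 8.997, 12.4 and 14.96 CPM in CTCF0 and 4.97, 3.79 and 3.49 CPM in WT (log2 fold change 1.56, adjusted p = 0.018). Gadd45, a gene of the response to DNA damage, and Corp, a regulator of p53, had log2 fold changes of 1.30 and 1.19. The collagen gene Col4a1 had 80.5, 98.0 and 97.0 CPM in CTCF0 and 45.2, 48.2 and 24.7 CPM in WT (log2 fold change 1.22, adjusted p = 0.0476). Loxl1, a lysyl oxidase gene that also acts in the extracellular matrix, moved the other way (log2 fold change -1.67). LamC, a nuclear lamin gene, and cher, the filamin gene, had log2 fold changes of 1.25 and 0.99.

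Decreased genes outside the lists, chosen in the same way, had varied functions. Pus7, a pseudouridine synthase gene, had 196, 155 and 178 counts in CTCF0 libraries and 897, 536 and 710 counts in WT libraries (log2 fold change -2.04, adjusted p = 0.000305). IleRS-m, a mitochondrial tRNA synthetase gene, and DNAlig3, a DNA ligase gene, had log2 fold changes of -1.23 and -0.90. Map205, which encodes a microtubule-associated protein, had 57.2, 37.8 and 48.2 CPM in CTCF0 and 106, 175 and 139 CPM in WT (log2 fold change -1.55, adjusted p = 0.011). Porin2 and Cyt-c1L, paralogs of mitochondrial genes, had under 0.6 CPM in each CTCF0 library and 1.21 to 3.19 CPM in WT libraries.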
